A study of Homo sapiens with 12 samples.

Results

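The zinc finger genes of chromosome 19 were taken as the protein-coding genes annotated there whose symbol is ZNF followed by digits only. This gave 240 of the 19974 protein-coding genes of chromosomes 1 to 22 and X in the RefSeq annotation of GRCh38.p14. Their median span was 23130.5 bp, against 12798 bp for the other 1211 protein-coding genes of the same chromosome, 23544 bp for the 237 ZNF genes of other chromosomes and 24170.5 bp for all protein-coding genes. The strand, needed to tell the start of a gene from its end, was known for 210 of the 240. The span of 40 overlapped another protein-coding gene, and 44 had no other gene within 5 kb.

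The study mapped histone modifications by chromatin immunoprecipitation and sequencing in untreated KBM-7 cells, a near-haploid human chronic myeloid leukaemia line. Its 12 samples are 9 immunoprecipitated libraries, 1 for each of H3K4me3, H3K9ac, H3K27ac, H3K4me2, H3K4me1, H3K79me2, H3K36me3, H4K16ac and H3K27me3, and 3 input libraries, which entered no comparison. The deposited list gives called intervals only, without counts or scores, so the depth is unknown, no value has a replicate and no difference could be tested across samples. The interval beside a share of genes is its Wilson 95% interval and covers the error of counting genes alone.

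The H3K36me3 and H4K16ac intervals in that list were the same 45695 intervals, base for base, and are given here as H3K36me3/H4K16ac; which of the marks they belong to cannot be told apart. The list also holds H3K9me3 intervals. No sample of the series carries that label, and the sources used here do not name the library, antibody or input behind any H3K9me3 value below. The H3K9me3 regions covered 33.6% of the sequence of these chromosomes and 53.5% of chromosome 19, and those of H3K27me3 covered 30.2% and 28.3%. How reads that match several near-identical zinc finger genes were placed is not given either, and its part in the values was not tested. As a check of the cell type, H3K4me3 lay within 1 kb of an end of 6 of 8 myeloid and progenitor genes, namely CD34, GATA2, LYL1, MYB, RUNX1 and SPI1 but not CD33 or KIT, and at 0 of 4 T cell, 0 of 4 B cell, 0 of 4 liver and 0 of 4 neuronal genes.

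Most zinc finger genes of chromosome 19 encode C2H2 zinc finger proteins, many with a KRAB domain that recruits the corepressor TRIM28 and the H3K9 methyltransferase SETDB1 to transposable elements and other targets. The genes arose by tandem duplication and lie in clusters, and their own 3' portions are known to carry H3K9me3 in many cell types while the genes are transcribed. H3K4me3 and H3K9ac mark active promoters, H3K79me2 the early transcribed part of a gene and H3K36me3 its body, while H3K9me3 and H3K27me3 are marks of heterochromatin and of Polycomb silencing.

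Promoters of 5 members are shown because these genes span the range of patterns described below: ZNF274, ZNF91 and ZNF146 carried both H3K4me3 and H3K9me3, ZNF93 carried H3K9me3 without H3K4me3, and ZNF574 carried H3K4me3 without H3K9me3. Each runs from 250 bases before to 50 after a RefSeq start on GRCh38.p14, 5' to 3' on the strand of the gene, with CpG dinucleotides in capitals.
ZNF274, chr19:58182811-58183110, plus strand: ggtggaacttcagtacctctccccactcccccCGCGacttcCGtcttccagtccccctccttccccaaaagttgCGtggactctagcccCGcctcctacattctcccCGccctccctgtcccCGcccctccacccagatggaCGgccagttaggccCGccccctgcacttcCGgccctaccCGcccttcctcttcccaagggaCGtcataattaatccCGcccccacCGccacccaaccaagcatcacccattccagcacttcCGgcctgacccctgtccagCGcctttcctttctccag
ZNF91, chr19:23395422-23395721, minus strand: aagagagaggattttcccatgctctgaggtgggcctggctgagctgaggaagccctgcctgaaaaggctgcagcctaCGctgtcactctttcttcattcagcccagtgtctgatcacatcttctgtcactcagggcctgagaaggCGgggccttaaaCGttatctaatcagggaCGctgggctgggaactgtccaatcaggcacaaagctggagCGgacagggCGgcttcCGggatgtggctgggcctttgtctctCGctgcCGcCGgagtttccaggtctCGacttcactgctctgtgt
ZNF146, chr19:36214856-36215155, plus strand: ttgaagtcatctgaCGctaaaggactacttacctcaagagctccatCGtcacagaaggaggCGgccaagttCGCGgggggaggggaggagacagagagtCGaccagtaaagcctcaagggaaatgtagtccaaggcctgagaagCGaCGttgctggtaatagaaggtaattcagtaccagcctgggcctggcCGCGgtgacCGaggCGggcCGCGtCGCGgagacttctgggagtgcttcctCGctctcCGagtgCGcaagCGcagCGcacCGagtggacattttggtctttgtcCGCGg
ZNF93, chr19:19900696-19900995, plus strand: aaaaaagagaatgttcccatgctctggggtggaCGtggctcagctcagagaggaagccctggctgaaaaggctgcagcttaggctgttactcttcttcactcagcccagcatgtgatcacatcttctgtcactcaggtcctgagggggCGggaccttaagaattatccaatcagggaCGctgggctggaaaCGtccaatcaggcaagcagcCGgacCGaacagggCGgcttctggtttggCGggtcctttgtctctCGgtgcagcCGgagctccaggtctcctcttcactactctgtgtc
ZNF574, chr19:42068227-42068526, plus strand: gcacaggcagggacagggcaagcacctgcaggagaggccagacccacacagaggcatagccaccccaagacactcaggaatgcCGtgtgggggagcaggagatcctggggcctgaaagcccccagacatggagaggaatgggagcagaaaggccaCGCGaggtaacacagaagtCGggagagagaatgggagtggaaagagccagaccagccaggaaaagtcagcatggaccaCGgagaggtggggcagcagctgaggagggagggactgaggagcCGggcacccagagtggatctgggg
These 300-base windows held 16 CpG in ZNF274, 11 in ZNF91, 24 in ZNF146, 10 in ZNF93 and 6 in ZNF574. The longest run of identical letters between the ZNF91 and ZNF93 promoters was 24 bases, against 11, 9 and 7 bases between that of ZNF91 and those of ZNF146, ZNF574 and ZNF274. H3K4me3 intervals covered 79 of the 300 bases in ZNF91 and 205 in ZNF146, and none in ZNF274 and ZNF574, whose H3K4me3 lay elsewhere in the gene or its flanks. H3K9me3 covered all 300 bases in ZNF274, ZNF91, ZNF146 and ZNF93, and none in ZNF574.

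Promoter marks were common at the zinc finger genes of chromosome 19. Over the gene and 5 kb on either side, H3K4me3 was present at 166 of the 240 (69.2%, interval 63.1 to 74.7%), against a background of 58.4% of all protein-coding genes. H3K9ac was present at 176 (73.3%), against 62.9%, and H3K4me2 at 189 (78.8%), against 78.2%, which lay inside the members' interval. At the annotated start, within 1 kb on either side, H3K4me3 was found in 122 of the 210 members with a strand (58.1%, interval 51.3 to 64.6%), against 52.8%. The corresponding counts were 137 (65.2%) for H3K9ac, against 56.3%, and 145 (69.0%) for H3K4me2, against 67.3%. ZNF genes of other chromosomes had higher shares than the members throughout. Over gene and flanks these were 76.4% for H3K4me3, 79.3% for H3K9ac and 89.0% for H3K4me2. At the start they were 69.2%, 72.8% and 81.0%, in the same order. The H3K4me3 intervals were short, with a median of 750 bp per member over gene and flanks and a highest value of 5550 bp. With only joined regions at or above the median width of the mark, H3K4me3 remained at 34.2% of the members.

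Marks typical of enhancers were scarce. H3K4me1 was present at 31 of the 240 members (12.9%, interval 9.25 to 17.8%), against 56.4% of all protein-coding genes, 62.3% of the other protein-coding genes of chromosome 19 and 46.8% of the ZNF genes of other chromosomes. H3K27ac was present at 7 (2.92%, interval 1.42 to 5.90%), against 10.9%; the H3K27ac set was small in the whole genome, with 3368 joined regions. The most H3K27ac was found over ZNF787 and ZNF792, with 900 bp each over gene and flanks, followed by ZNF69 and ZNF700 with 600 bp each, which overlap and share it, and by ZNF114 and ZNF616 with 450 bp each. H3K79me2 was present at 123 members (51.2%), against 47.6%, and within 1 kb of the start of 72 of 210 (34.3%), against 36.7%, so its shares were near the background.

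**Figure D1:**
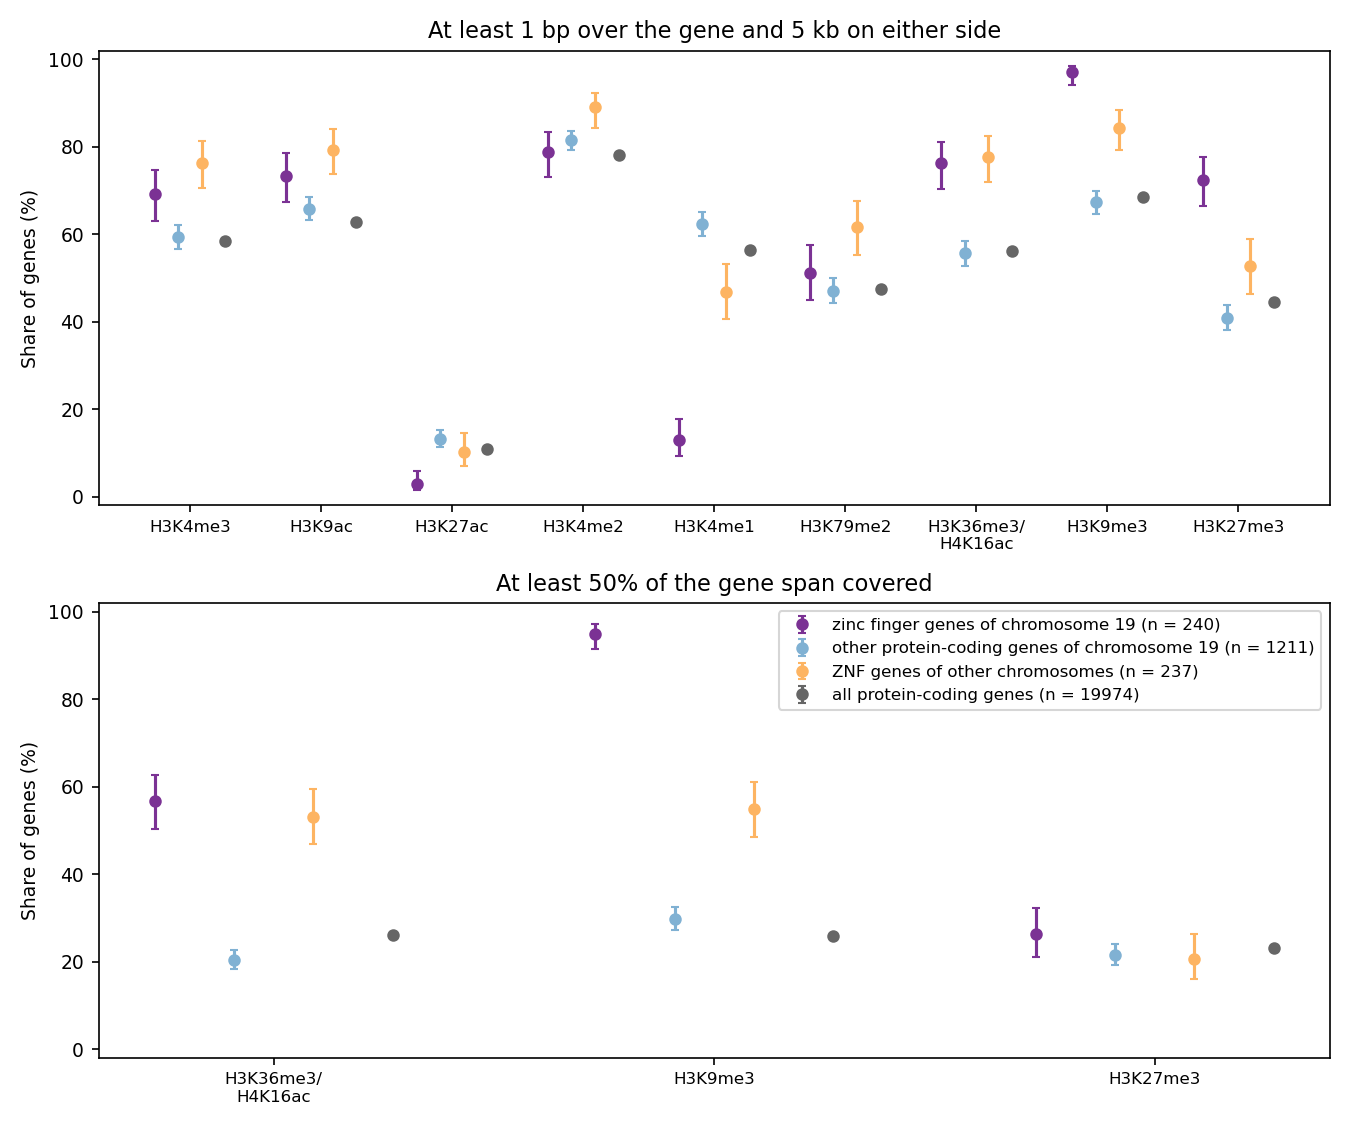
Share of genes (%) with each mark over the gene and 5 kb on either side (upper panel) and with at least 50% of the span covered (lower panel). Points are the zinc finger genes of chromosome 19 (240), the other protein-coding genes of chromosome 19 (1211), the ZNF genes of other chromosomes (237) and all protein-coding genes (19974), from left to right at each mark; bars are Wilson 95% intervals. The zinc finger genes of chromosome 19 stand lowest for H3K4me1, at 12.9%, and highest for H3K9me3, at 97.1%.

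The bodies of these genes were covered by H3K36me3/H4K16ac and H3K9me3 more often than those of all protein-coding genes, while H3K27me3 was present more often but rarely filled the gene. H3K36me3/H4K16ac was present over gene and flanks at 183 members (76.2%), against 56.3% of all protein-coding genes, and covered at least 50% of the span of 136 (56.7%, interval 50.3 to 62.8%), against 26.2%. The share for the other genes of chromosome 19 was 20.4%, and that for ZNF genes of other chromosomes was 53.2%, inside the members' interval. The median member had 65.6% of its span under this set, with quartiles of 0 and 86.9%, and 67 members had none.

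H3K9me3 was present at 233 members (97.1%, interval 94.1 to 98.6%), against a background of 68.4%. It covered at least 50% of the span of 228 (95%, interval 91.5 to 97.1%), against 25.8% of all protein-coding genes, 29.8% of the other genes of chromosome 19 and 54.9% of the ZNF genes of other chromosomes. In 188 of the 240 members the whole span was covered, and in 8 no base was. H3K27me3 was present at 174 members (72.5%), against 44.4%, yet covered at least 50% of the span of only 63 (26.2%, interval 21.1 to 32.2%), against 23%; the median member had 19.7% of its span covered. That count rests on the threshold: 45.8% of the members had at least 25% of the span covered, and 12.1% had at least 75%.

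Start and end portions differed when the span was cut into 3 equal portions. Among the 210 members with a strand, H3K4me3 covered more of the start portion than of the end portion in 129 (61.4%, interval 54.7 to 67.8%), against 53.2% of all protein-coding genes, and less in 3. H3K79me2 covered more of the start portion in 91 (43.3%, interval 36.8 to 50.1%), against 40.2%, a share near the background, and less in 4. H3K36me3/H4K16ac covered more of the end portion in 112 members (53.3%, interval 46.6 to 60.0%), against 40.8% of all protein-coding genes. It covered less there in 41 (19.5%), against 10.1%. Both shares were above the background, and 70% of the members had some of this set in the end portion, against 47.8%. In ZNF genes of other chromosomes the end portion had more in 53.8% and less in 23.1%. H3K27me3 likewise covered more of the end portion in 97 members (46.2%, interval 39.6 to 52.9%), against 11.7%, and less in 46 (21.9%), against 14.9%. In ZNF genes of other chromosomes the end portion had more in 20% and less in 14.9%. Among the 40 members with a strand and no other gene within 5 kb the lean was smaller, with more in 15 (37.5%) and less in 12. Mean H3K27me3 cover over the 210 members was 36.4% of the end portion and 23.1% of the start portion. Over all protein-coding genes the end portion had 20.9% and the start portion 22.1%. H3K9me3 was equal in both portions in 176 members. It was higher in the end portion in 27 (12.9%), against 22% of all protein-coding genes. It was lower there in 7 (3.33%), against 22.9%. The median cover of the members was 100% in both portions, so many could show no difference. Where the portions differed, the members leaned to the end. All protein-coding genes were near even, with 3484 higher there and 3625 lower. ZNF genes of other chromosomes had more in the end portion in 31.8% and less in 13.3%.

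Within 1 kb of the annotated end, H3K36me3/H4K16ac was found in 103 of 210 members (49.0%), against a background of 35%, H3K9me3 in 199 (94.8%), against 31.4%, and H3K27me3 in 78 (37.1%), against 22.8%. In ZNF genes of other chromosomes these shares were 49.2%, 62.1% and 23.1%. Within 1 kb of the start, H3K9me3 was found in 183 (87.1%, interval 81.9 to 91.0%), against 27.9%, and H3K27me3 in 44 (21.0%, interval 16 to 27%), against 26.5%. For ZNF genes of other chromosomes the shares at the start were 44.1% and 23.1%. H3K27me3 was above the background share at the ends of these genes, and at their starts the background share lay inside the members' interval.

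Members with and without H3K4me3 at the start differed in H3K36me3/H4K16ac and H3K79me2. The 122 members with it had a median of 85.4% of the span under H3K36me3/H4K16ac, and the 88 without it had a median of 0. In all protein-coding genes the medians were 47.2% with H3K4me3 at the start and 0 without. In ZNF genes of other chromosomes they were 69.4% and 0. H3K79me2 lay within 1 kb of the start of 70 of the 122 (57.4%) and of 2 of the 88 (2.27%), and of 68.1% and 1.55% of all protein-coding genes split in the same way, so this split is that of genes in general. H3K9me3 lay at the start of 100 of the 122 (82.0%, interval 74.2 to 87.8%) and of 83 of the 88 (94.3%, interval 87.4 to 97.5%). Among all protein-coding genes with H3K4me3 at the start, by contrast, 7.72% had H3K9me3 there, and among those without, 50.4%. ZNF genes of other chromosomes lay between, with 31.1% and 73.3%. These are shares of genes in 1 set of calls, and they do not say whether both marks sat on the same chromatin fibre or in the same cells.

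The same 122 members had a median of 37.0% of the span under H3K27me3, against 9.77% in the 88. At least 10% of the span was under H3K27me3 in 91 of the 122 (74.6%), while this held for 5.15% of the other chromosome 19 genes with H3K4me3 at the start, 28.1% of such ZNF genes of other chromosomes and 7.48% of all such protein-coding genes. Along the gene, mean H3K27me3 cover in the 122 was 6.0% in the first of 20 equal bins of the span, highest in bin 17, at 54.2%, and 32.0% in the last bin. H3K36me3/H4K16ac reached 79.6% by bin 4 and H3K79me2 was highest in bin 2, at 40.4%. H3K9me3 cover was lowest around the start, with 78.4% in the 1 kb before it, and at or above 90.1% from bin 4 on.

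**Figure D2:**
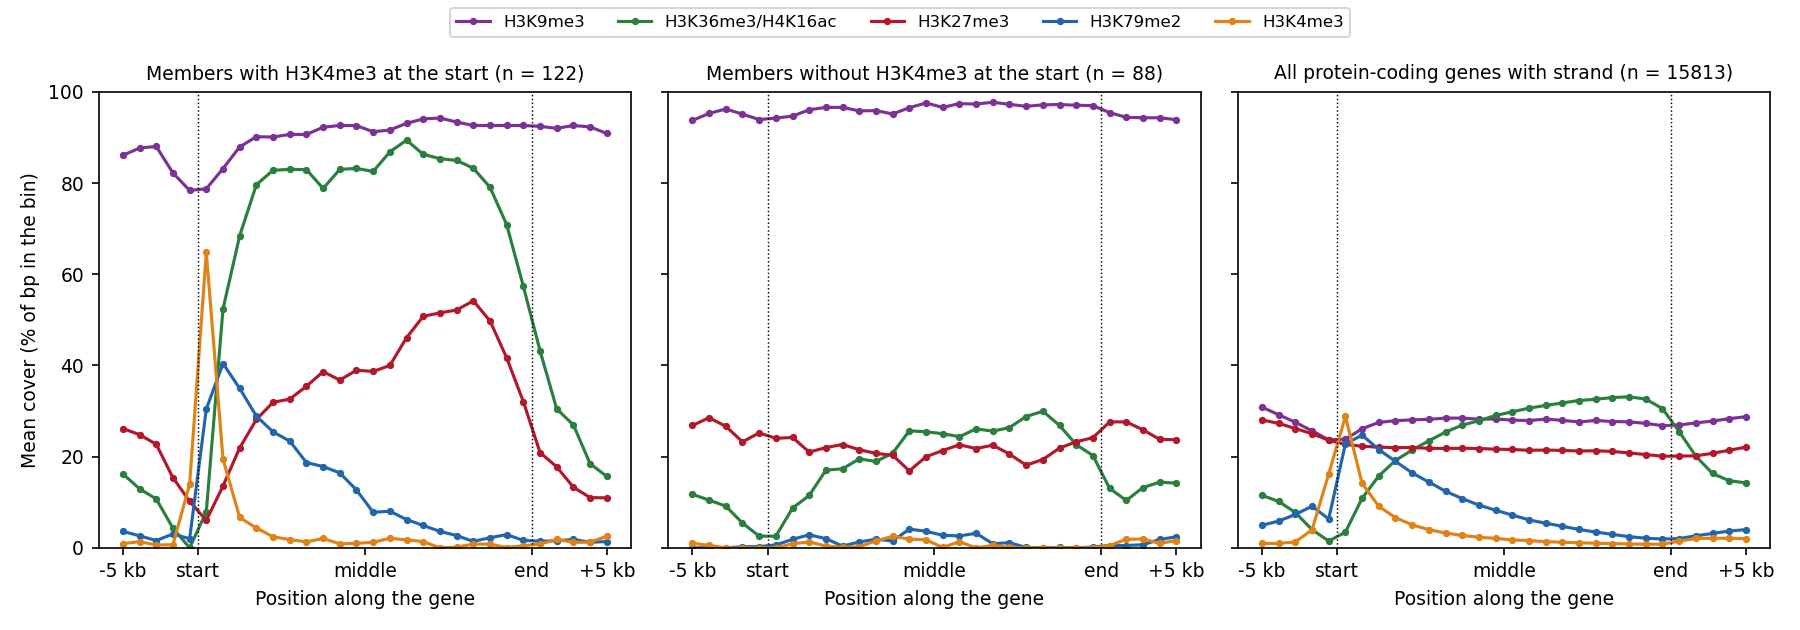
Mean cover (% of bp in the bin) of 5 sets along the gene: 5 bins of 1 kb before the start, 20 equal bins of the span and 5 bins of 1 kb after the end, separated by dotted lines. Left, the 122 members with H3K4me3 within 1 kb of the start; middle, the 88 members without; right, all 15813 protein-coding genes with a strand. In the left panel the H3K27me3 line climbs along the gene to 54.2%, under an H3K36me3/H4K16ac line that stays high from bin 4 to near the end; in the right panel the H3K27me3 line is nearly flat.

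The sets lay over the same bases as well as over the same genes. At least 10% of the span was under each of H3K36me3/H4K16ac and H3K9me3 in 164 members (68.3%, interval 62.2 to 73.9%). This held for 13.1% of all protein-coding genes and 51.1% of ZNF genes of other chromosomes. Taken singly, H3K9me3 reached 10% in 232 members and H3K36me3/H4K16ac in 169, so the 164 are close to the latter count. H3K36me3/H4K16ac and H3K27me3 each reached 10% in 122 members (50.8%, interval 44.5 to 57.1%), against 2.16% of all and 21.5% of ZNF genes of other chromosomes. All 3 sets reached 10% in the same 122, against 2.08% and 21.5%. Of the 432 protein-coding genes with both H3K36me3/H4K16ac and H3K27me3 at that level, 122 (28.2%) were zinc finger genes of chromosome 19 and 173 (40.05%) were ZNF genes of any chromosome.

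Counted in bases, 98.3% of the H3K36me3/H4K16ac cover within the spans of the members lay under H3K9me3, compared with 19.8% in the other genes of chromosome 19, 50.5% in ZNF genes of other chromosomes and 16.7% in all protein-coding genes. H3K9me3 covered 96.1% of the members' whole span, so the 98.3% largely follows from that cover. In the compared genes, in the same order, it covered 35.1%, 50.5% and 31.7% of the span. Of the H3K36me3/H4K16ac cover, 39.0% lay under H3K27me3 in the members, compared with 2.24%, 15.1% and 1.19%. H3K27me3 covered 30.5% of the members' span, and 21.8%, 25.9% and 26.9% in the compared genes. The members made up 0.546% of the protein-coding sequence span but held 44.4% of all bases in it that were under both H3K36me3/H4K16ac and H3K27me3. They also held 29.2% of the bases under both H3K4me3 and H3K9me3, since 78.3% of their H3K4me3 lay under H3K9me3, compared with 2.85% in the other genes of chromosome 19, 16.1% in ZNF genes of other chromosomes and 2.71% in all protein-coding genes. That 78.3% was below the 96.1% of the members' span under H3K9me3. H3K4me3 overlapped H3K27me3 over 8.91% of its bases in the members.

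**Figure D3:**
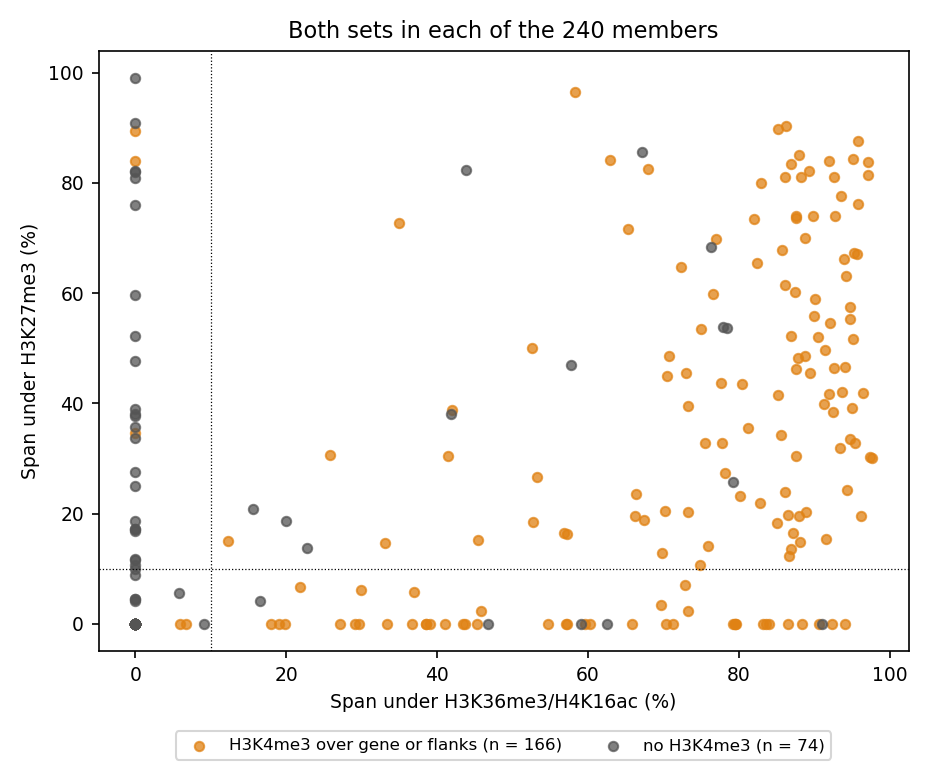
Percent of the span under H3K36me3/H4K16ac (x axis) and under H3K27me3 (y axis) in each of the 240 members; orange points have H3K4me3 over the gene or its 5 kb flanks (166) and grey points do not (74). Dotted lines mark 10%. The upper right field holds 122 members, and most grey points lie at 0 on the x axis.

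By H3K4me3 over gene and flanks and at least 10% of the span under each of the 3 broad sets, the members fell into 10 classes. The largest, with 111 members, had H3K4me3 and all 3 broad sets, and 37 more had H3K4me3, H3K36me3/H4K16ac and H3K9me3. H3K9me3 alone was found in 35, H3K9me3 with H3K27me3 in 23, and H3K36me3/H4K16ac, H3K9me3 and H3K27me3 without H3K4me3 in 11. H3K4me3 with H3K9me3 only was found in 7, and the class of H3K36me3/H4K16ac with H3K9me3 and no H3K4me3 held 5: ZNF433, ZNF546, ZNF235, ZNF28 and ZNF784.

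Among members with the fullest H3K36me3/H4K16ac cover, ZNF708 had 97.6% of its span under it, ZNF506 97.4%, ZNF283 97.2%, ZNF100 97.1%, ZNF700 96.5% and ZNF564 96.2%. All of them also carried H3K4me3, with between 600 bp in ZNF283 and 1800 bp in ZNF700, and H3K9me3 over 96.5% of the span in ZNF700 and over all of it in the other 5. H3K27me3 cover varied widely among them, with 83.7% in ZNF283, 81.5% in ZNF100, 41.9% in ZNF700, 30.3% in ZNF506, 30.1% in ZNF708 and 19.6% in ZNF564. In ZNF700 and ZNF564 it was absent from the start portion and covered 94.2% and 58.9% of the end portion.

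ZNF274, at chr19:58183061-58213562, had H3K36me3/H4K16ac over 95.3% of its span, H3K9me3 over all of it and H3K27me3 over 67.2%, beside 600 bp of H3K4me3. Its KRAB zinc finger protein is known to bind the 3' ends of zinc finger genes and to bring SETDB1 there. Whether the protein acts at its own gene was not tested. ZNF91, a repressor of SVA retrotransposons at chr19:23305004-23395471, had 2400 bp of H3K4me3 and 18150 bp of H3K79me2. Its H3K36me3/H4K16ac covered 95.1% of the start portion and 17.1% of the end portion, and its H3K27me3 47.0% of the start portion and none of the end portion, so both leaned to the start. ZNF93, a repressor of L1 retrotransposons at chr19:19900946-19935575, had none of H3K4me3, H3K9ac, H3K79me2 or H3K36me3/H4K16ac over gene and flanks, with H3K9me3 over 85.6% of the span and H3K27me3 over 4.5%.

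ZNF224, a repressor of the aldolase A gene, had 1950 bp of H3K4me3, H3K36me3/H4K16ac over 86.2% of its span and H3K27me3 over 61.4%. ZNF160, a repressor of TLR4, had 1500 bp of H3K4me3, H3K36me3/H4K16ac over 94.8% and H3K27me3 over 55.4%, and over the whole end portion. ZNF226 had H3K27me3 over 72.7% of the span, and H3K36me3/H4K16ac over 92.1% of the start portion and none of the end portion. ZNF382, a tumour suppressor of several carcinomas, had H3K36me3/H4K16ac over 72.9% and H3K27me3 over 6.9%. ZNF444, a SCAN domain factor, had H3K36me3/H4K16ac over 36.7%, with no H3K27me3 in the span. ZNF331, an imprinted gene, had 300 bp of H3K4me3, H3K36me3/H4K16ac over 12.3% and H3K27me3 over 14.9% of its 77035 bp. H3K9me3 covered the whole span of all 6 genes.

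The most H3K4me3 was found at ZNF121, with 5550 bp, and at ZNF581, with 4950 bp, followed by 3450 bp shared by the overlapping ZNF146 and ZNF565. ZNF121 also had H3K36me3/H4K16ac over 95.8%, H3K9me3 over 97.9% and H3K27me3 over 87.6% of its span. ZNF146, whose protein consists almost wholly of zinc fingers, had 92.6%, 100% and 81.1% under these sets. The most H3K79me2 lay over ZNF254, with 19800 bp, and ZNF675, with 18900 bp. In ZNF254 H3K27me3 was absent from the start portion and covered 59.1% of the end portion, and in ZNF675 it covered 8.7% of the start portion and 87.2% of the end portion.

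H3K27me3 covered the most of the span in ZNF541, with 99.05%, and in ZNF470, with 96.5%, followed by ZNF223, ZNF180, ZNF550 and ZNF155 with 90.8%, 90.4%, 89.8% and 89.4%. ZNF541, a germ cell gene, had no H3K4me3, H3K9ac, H3K79me2 or H3K36me3/H4K16ac, and H3K9me3 over its whole span. ZNF536, a neural gene and the longest member with 487995 bp, was alike, with H3K27me3 over 82.2%, H3K9me3 over 91.9% and no H3K4me3. ZNF470, ZNF180 and ZNF550 differed from these: they had H3K36me3/H4K16ac over 58.3%, 86.2% and 85.2% of the span and between 600 and 900 bp of H3K4me3. ZNF155, ZNF320 and ZNF415 formed a class of 3 with H3K4me3, H3K9me3 and H3K27me3 and no H3K36me3/H4K16ac in the span.

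Long members with the whole span under H3K9me3 were ZNF91, ZNF577, ZNF568, ZNF83, ZNF331 and ZNF730. ZNF568, whose mouse counterpart represses a placental Igf2 transcript, carried no other set over its 81601 bp and both flanks. ZNF83 instead had H3K36me3/H4K16ac over 80.2% of its span.

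Members without any H3K9me3 in the span were 8 in number: ZNF414, ZNF574, ZNF526, ZNF576 and ZNF296, with H3K4me3 and H3K36me3/H4K16ac, and ZNF575, ZNF581 and ZNF580, with H3K4me3 as the only one of these marks at the level used. They were short, with a median span of 5116 bp (2469 to 13076 bp). All 8 had H3K4me3 over gene or flanks and none had H3K27me3 in the span. ZNF574, for example, had 3300 bp of H3K4me3, 4050 bp of H3K79me2 and H3K36me3/H4K16ac over 27.2% of the span, and ZNF526 had 2400 bp, 5339 bp and 59.6%. In ZNF574, ZNF526, ZNF576 and ZNF296, H3K36me3/H4K16ac covered between 81.5% and 100% of the end portion and at most 10.9% of the start portion. ZNF414 is left out of these ranges and had 33.4% of its whole span under the set. ZNF580, the shortest member, and ZNF581 overlap and share most of their intervals. Apart from the class of 3, the 8 were chosen for description once their values were known.

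Along the chromosome the members formed 26 runs with gaps of at most 250 kb, of which 12 held at least 5 members and together 222 of the 240. H3K9me3 covered between 51.3% and 100% of the members' own sequence in these 12 clusters and between 51.5% and 100% of the sequence between members, which includes other genes. H3K36me3/H4K16ac was different: it covered between 32.2% and 58.7% of the members' sequence and between 1.42% and 24.9% of the sequence between them, and was higher within members in every one of the 12. H3K27me3 cover ranged between 0 and 67.2% within members and between 0.495% and 70.6% between them, with no common direction. Neighbours share intervals, so members of a cluster are not independent.

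**Figure D4:**
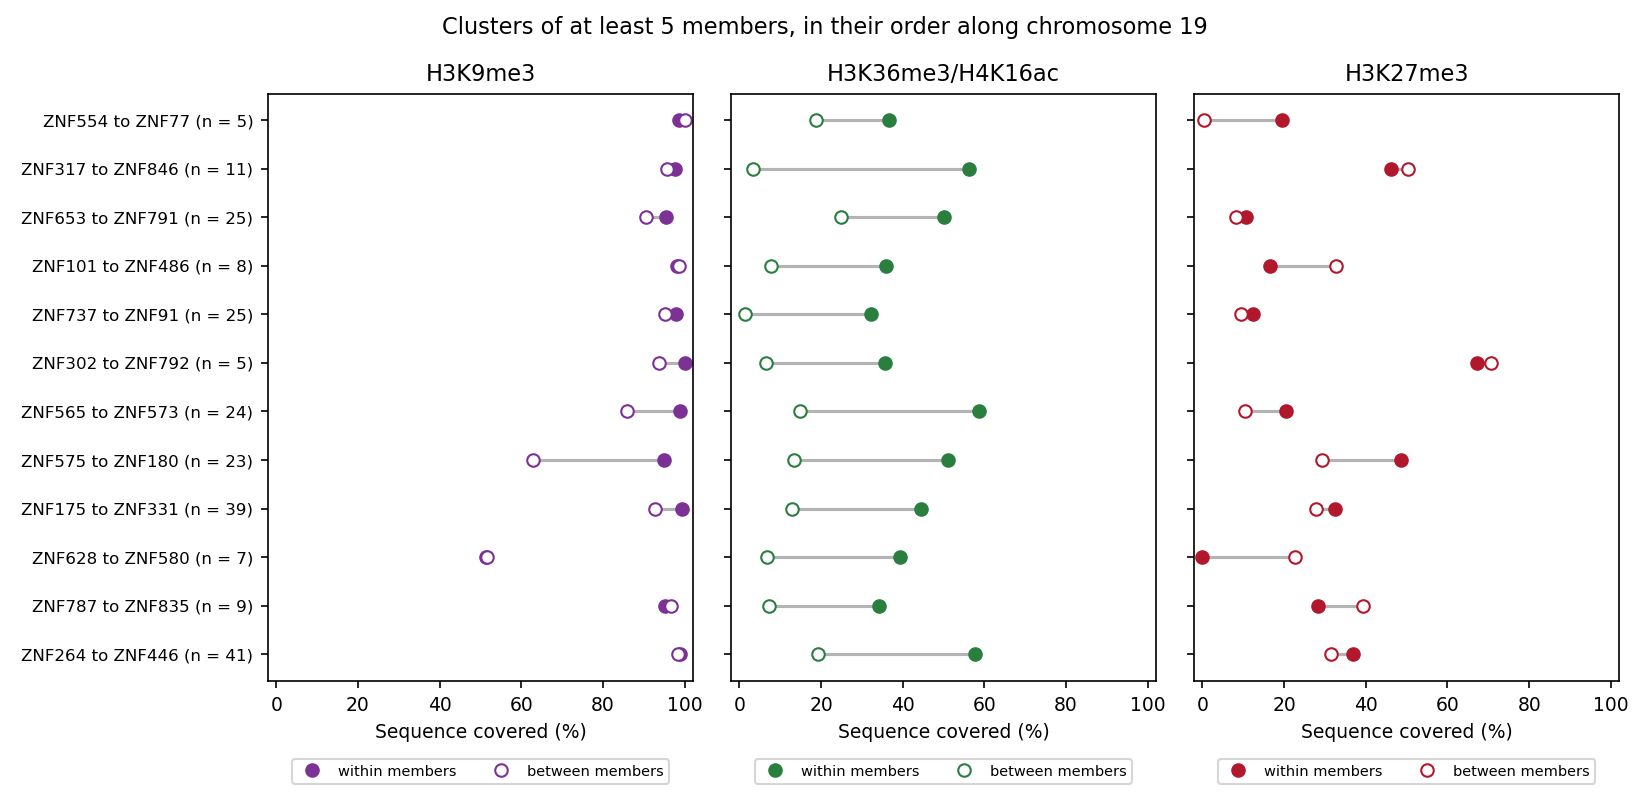
Percent of sequence covered within members (filled circles) and between members (open circles) in the 12 clusters of at least 5 members, from the top down in their order along chromosome 19. H3K9me3 (left) is near 100% on both sides in most clusters, H3K36me3/H4K16ac (middle) is higher within members in all 12, and H3K27me3 (right) shows both orders.

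The cluster from ZNF737 to ZNF91, 25 members over 2.87 Mb had H3K4me3 at 10. H3K36me3/H4K16ac covered 32.2% of the members' sequence and 1.42% between them, and H3K9me3 97.8% and 95.2%. In the cluster from ZNF565 to ZNF573, with 24 members, H3K4me3 was present at 21 and H3K36me3/H4K16ac covered 58.7% within members. The cluster from ZNF264 to ZNF446, with 41 members, had H3K4me3 at 30, and that from ZNF175 to ZNF331, with 39, had it at 26. H3K27me3 was fullest in the 5 members from ZNF302 to ZNF792, with 67.2%, and in the 23 from ZNF575 to ZNF180, with 48.5%, against 10.7% in the 25 from ZNF653 to ZNF791 and 12.4% in the 25 from ZNF737 to ZNF91. The 7 short members from ZNF628 to ZNF580 stood apart, with H3K9me3 over 51.3% and no H3K27me3.

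The widest H3K9me3 region in the genome lay in these clusters. It ran over 1415 kb, chr19:56316001-57731000, and held 28 members from ZNF582 to ZNF671, of which 18 had H3K4me3. The next widest on the chromosome, 808 kb, touched 19 members from ZNF577 to ZNF701, with H3K4me3 at 12. None of the 5 widest H3K27me3 regions of chromosome 19, the widest of 103 kb, touched a member.

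**Figure D5:**
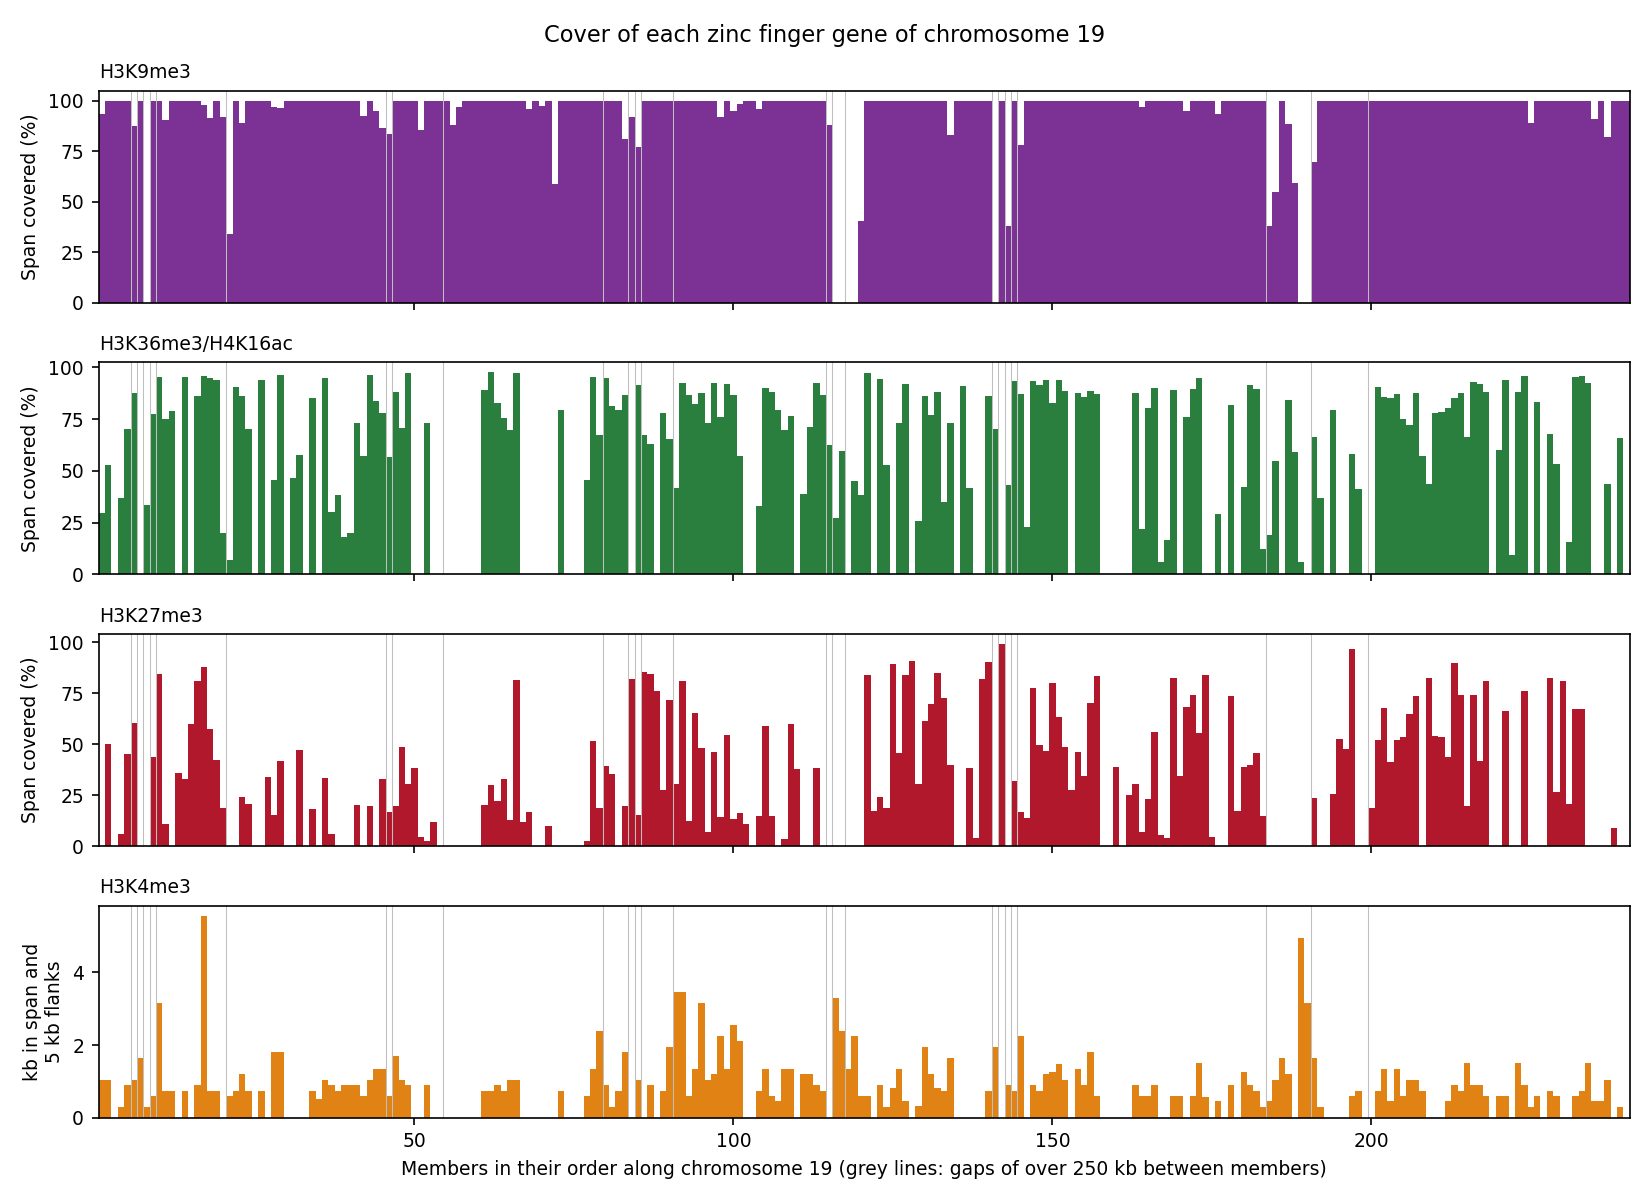
Cover of each of the 240 members in their order along chromosome 19: percent of the span under H3K9me3, H3K36me3/H4K16ac and H3K27me3, and kb of H3K4me3 over the gene and 5 kb flanks (linear axes). Grey lines mark gaps of over 250 kb. H3K9me3 is at or near 100% in nearly all members, while the other 3 panels vary from neighbour to neighbour.

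Genes of the machinery through which KRAB zinc finger proteins act carried promoter and gene body marks. All 21 of a list with TRIM28, SETDB1, the HP1 genes CBX1, CBX3 and CBX5, the HUSH complex genes TASOR, MPHOSPH8 and PPHLN1, and H3K9 and H3K36 methyltransferases and demethylases had H3K4me3, H3K79me2 and H3K36me3/H4K16ac over gene and flanks, marks present at 58.4%, 47.6% and 56.3% of all protein-coding genes. H3K36me3/H4K16ac covered at least 50% of the span of 18, against 26.2% of all, with 98.1% in SETDB1 and 70.9% in TRIM28. H3K9me3 was present at 14 of the 21, near the background of 68.4%, but reached 50% of the span in 0, against 25.8% of all, with 40.1% in ATF7IP the highest value. H3K27me3 was present at 4, against 44.4% of all.

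Few promoters of the members were poor in CpG. Over the 210 members in the RefSeq promoter table, the median was 20 CpG in 300 bases, against 22 in all protein-coding genes. Fewer than 10 were found in 7.14%, against 27.2% of all protein-coding genes and 26.5% of the other genes of chromosome 19. ZNF genes of other chromosomes were close to the members, with 9.74% under 10 CpG and a median of 24. The 100 promoters with an H3K4me3 interval on them had a median of 20.5 CpG, and the 110 without had 20, but fewer than 10 CpG were found in 2 of the 100 and in 13 of the 110 (11.8%). In all protein-coding genes the share of promoters with H3K4me3 was 4.10% at 0 to 9 CpG, 38.6% at 10 to 19 CpG, 61.6% at 20 to 29 and 66.4% at 30 or more, whereas in the members it was 13.3% of 15, 50.6% of 81, 53.5% of 86 and 39.3% of 28 (interval 23.6 to 57.6%). The letters CCGGAAG, the core of ETS factor motifs, stood on either strand in 43.8% of the members' promoters, against 35.9% in ZNF genes of other chromosomes, 13.4% in the other genes of chromosome 19 and 14.1% in all. They stood in 42.0% of the members' promoters with H3K4me3 and in 45.5% of those without it. GGGCGG, the GC box, stood in 69.0% of the members' promoters and 58.3% of all. The share was 61.0% in ZNF genes of other chromosomes and 65.3% in the other genes of chromosome 19.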

How the data were processed

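The authors deposited 1 list of called interval positions in bp, each tagged with its mark. Per the submitters' processing notes, cutadapt, Bowtie2, MACS and the build GRCh38 were used; the sources used here give no roles, versions or thresholds, nor the input of each call. Starts were counted from 0 for H3K27me3 and H3K9me3 and from 1 for the other marks, and were brought to 1 scale. Intervals of a mark were joined where they touched or overlapped. Region edges follow grids of 1000 bp for H3K9me3, 500 bp for H3K36me3, H4K16ac and H3K27me3, and 50 bp for the others. 1 label, H3K9me3, belongs to no sample of the series and was used because every mark in the list was to be described. Covered bp were counted with Python 3.11.15, numpy 2.4.6 and pandas 2.3.3, and tested on simulated intervals. Gene spans and strands came from RefSeq. Named genes were those with the most cover under each set, all members of classes of 4 or fewer, the longest, the shortest and members with known roles. The members and lists were chosen with earlier results of these data known. No test across samples was possible with 1 library per mark, so shares are descriptions.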

Additional observations from a re-analysis of the deposited data

How the results depend on the processing

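Of 145 recomputed values for 30 results, 126 moved little, staying within a ratio of 1.5 to the main value, and 19 moved more. A reversal could be seen only in the results on start against end portions, and none was. The shares over all protein-coding genes were not recomputed. Requiring at least 10% of gene and flanks to be covered left H3K4me3 at 4.17% of members, H3K9ac at 5.42%, H3K27ac at 0%, H3K4me2 at 23.75%, H3K4me1 at 2.08% and H3K79me2 at 19.6%; these marks are narrow. With joined regions at or above the median width only, H3K4me3 lay at 34.2%, H3K9ac at 48.75%, H3K27ac at 1.67%, H3K4me1 at 5.83% and H3K79me2 at 33.75%. Requiring 500 bp gave 1.67% for H3K27ac and 8.33% for H3K4me1, and the 44 members with no other gene within 5 kb had 0% for H3K27ac. Of the 40 such members with a strand, 15 had more H3K27me3 in the end portion and 12 less, against 97 and 46 of all 210. At least 25% or 75% of the span under H3K27me3 was found in 45.8% and 12.1%. H3K79me2 lay within 500 bp of the start in 21.4%, and H3K27me3 within 2.5 kb in 34.8%. H3K27me3 within the spans alone was found at 4.76% of the 21 silencing genes, an alternative chosen after seeing the data, as were other cluster gaps, promoter-table starts and the settings for H3K36me3/H4K16ac with H3K27me3. Of 123 recomputed values of single genes, 108 moved little. No paired analysis was possible because each mark has 1 library. The planned count of finger and KRAB patterns was not run. Depth limits cannot be stated, since the list holds no reads.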

Other observations

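The 18 ZNF pseudogenes of chromosome 19, which no comparison above uses, had H3K9me3 over at least 50% of the span in 17. H3K36me3/H4K16ac covered at least 50% of the span in 5 of them, and H3K4me3 lay over gene or flanks in 4. H3K27me3 covered at least 10% of the span in 9.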
